A study of Mus musculus with 19 samples.

Results

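Of 19 hippocampal RNA-seq libraries, the 8 with the highest and the 8 with the lowest level of Meg3 within their groups were compared. Meg3 is a maternally expressed long noncoding RNA (lncRNA) of the imprinted Dlk1-Dio3 locus on mouse chromosome 12. Libraries were ranked by Meg3 CPM (counts scaled to a common library size) within each of the 4 groups of genotype and sex. The 2 highest were taken as high and the 2 lowest as low, and the middle library of each group of 5 (3 libraries in all) was left out. Meg3 itself set the classes, so its values are a description and it is absent from every test and count of genes below.

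Each library came from total RNA of the left hippocampus of 1 mouse aged 4 months, so the RNA was not fractionated and "nuclear RNA" is not what was extracted. All animals carried 5xFADHEMI, the 5xFAD transgenes of a mouse model of amyloid plaque formation, driven by the Thy1 promoter, and no animal without them was sequenced here. The groups were 5xFADHEMI females (n = 5) and males (n = 5), and 5xFADHEMI:CLUh2kbKIHO females (n = 4) and males (n = 5), called knock-in below for the clusterin knock-in allele. Library totals lay between 17.28 and 25.2 M counts (M for mega), and the difference in total between high and low libraries did not pass (exact within-group permutation test, two-sided, p = 0.839, n = 8 and 8). All 17 hippocampal subfield markers and all 12 neuronal markers looked for passed the filter on low counts. In bulk tissue, fewer cells of a type and less RNA per cell cannot be told apart.

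Most lncRNAs of this kind stay in the nucleus. Malat1 gathers at nuclear speckles, the storage sites of splicing factors, and Neat1 is the scaffold of paraspeckles. Some mRNAs of splicing factors and splicing kinases also stay in the nucleus for a time, because they keep a few introns that are spliced late, known as detained introns. Genes of these kinds made up the first lists examined. The lists were drawn up with earlier results of these data known.

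Meg3 also differed between the groups. In 5xFAD females the high libraries were at 3145 and 3018 CPM and the low ones at 2482 and 2342. In 5xFAD males the high libraries were at 2182 and 2179 CPM and the low ones at 1696 and 468. Knock-in males had high values of 3940 and 2140 CPM and low values of 1417 and 966. Knock-in females had high values of 832 and 665 CPM and low values of 361 and 331. The high knock-in female libraries therefore had less Meg3 than every low library of the other groups except the lowest 5xFAD male one. The middle libraries, just outside the rule, were at 2772, 2026 and 1654 CPM in 5xFAD females, 5xFAD males and knock-in males. The ratio of the mean high to the mean low value was 1.28 in 5xFAD females, 2.02 in 5xFAD males, 2.16 in knock-in females and 2.55 in knock-in males.

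**Figure D1:**
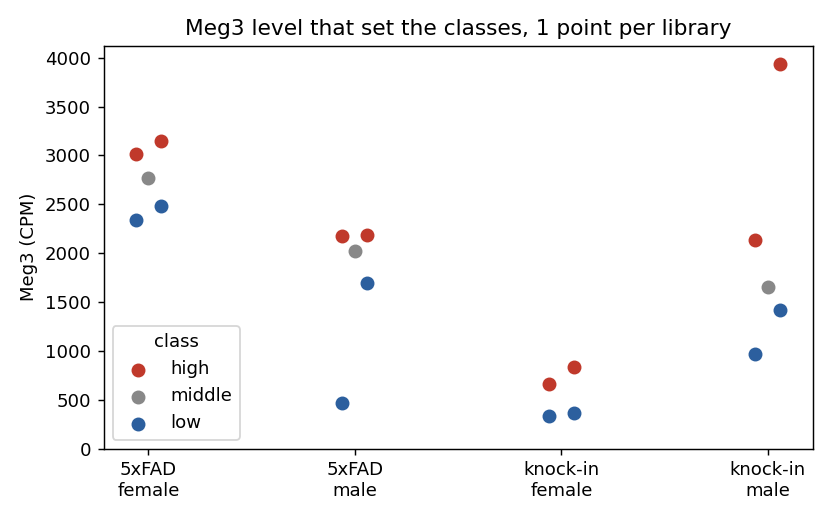
Meg3 in CPM (y axis, linear) for each library by group (x axis), coloured by class. The 4 knock-in female libraries lie between 331 and 832 CPM, and 5xFAD male 10, at 468 CPM, lies far below the other males.

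The promoters of 3 genes of nuclear or snoRNA host transcripts whose levels followed Meg3 are printed first. Miat is an lncRNA of neuronal nuclei, and Firre is an X-linked lncRNA that organises chromosomes in the nucleus. Snhg11 is a small nucleolar RNA host gene of neurons that GENCODE M21 classes as protein-coding. It is counted as protein-coding in the shares by gene class below, but with the lncRNAs in the list counts. Each run holds 250 bases before and 50 after the annotated start, 5′ to 3′ on the gene's strand (RefSeq, GRCm38.p6), at chr5:112228899-112229198 (minus) for Miat, chr2:158375463-158375762 (plus) for Snhg11 and chrX:50635272-50635571 (minus) for Firre. Capitals mark the GC box GGGCGG on either strand.
Miat: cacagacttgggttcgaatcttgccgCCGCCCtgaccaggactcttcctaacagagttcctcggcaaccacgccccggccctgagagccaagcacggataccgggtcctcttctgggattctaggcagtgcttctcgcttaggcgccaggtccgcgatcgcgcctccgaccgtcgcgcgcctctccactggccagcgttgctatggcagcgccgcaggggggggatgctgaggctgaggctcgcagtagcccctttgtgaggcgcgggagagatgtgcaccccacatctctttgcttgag
Snhg11: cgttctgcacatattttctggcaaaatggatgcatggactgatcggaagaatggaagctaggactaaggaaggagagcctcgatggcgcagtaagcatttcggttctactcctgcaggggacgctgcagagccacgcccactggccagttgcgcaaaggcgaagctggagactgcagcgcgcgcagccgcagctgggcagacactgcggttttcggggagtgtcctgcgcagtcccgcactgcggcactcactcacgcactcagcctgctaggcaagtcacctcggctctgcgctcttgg
Firre: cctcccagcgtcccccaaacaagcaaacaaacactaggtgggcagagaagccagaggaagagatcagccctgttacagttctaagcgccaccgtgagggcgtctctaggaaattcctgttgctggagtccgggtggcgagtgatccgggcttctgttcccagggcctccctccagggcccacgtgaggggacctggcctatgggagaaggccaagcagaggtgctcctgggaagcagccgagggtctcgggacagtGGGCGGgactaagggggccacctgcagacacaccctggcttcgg
Miat and Firre held 1 GC box each and Snhg11 held 0, against 35.9% of 27025 promoters of the same length with at least 1. None of the 3 held the TATA box TATAAA (14.2% of promoters) or the cyclic AMP element TGACGTCA (1.88%). Their GC content was 64.3%, 60% and 62.7% for Miat, Snhg11 and Firre, against a median of 52.7%.

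No gene passed the test of high against low libraries. With edgeR's quasi-likelihood test and the group as a block, 0 of 17971 genes had an adjusted p under 0.05 (0% in either direction), and the smallest adjusted p was 0.0817. At an unadjusted p under 0.05, 1216 genes were higher in the high libraries (6.77%) and 658 were lower (3.66%). DESeq2 on the same 16 libraries called 153 genes higher (0.803%) and 8 lower (0.042%), and limma-voom called 0. Over all genes, 48.1% had a fold change above 0, with a median of -0.01 on the log2 scale.

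A second fit used all 19 libraries and the Meg3 level itself, as the log2 CPM minus its group mean, in place of the 2 classes. In this slope fit, edgeR's adjusted p called 510 of 18203 genes as rising with Meg3 (2.8%) and 2 as falling (0.011%). These calls leaned on 2 male libraries whose Meg3 lay far from the rest of their groups. Without 5xFAD male 10, 141 genes rose (0.775%) and 15 fell. Without knock-in male 10, 271 rose (1.5%) and 4 fell, and without knock-in male 7, 334 rose and 2 fell. Without both libraries numbered 10, 10 genes rose (0.0553%) and 0 fell. They are the lowest 5xFAD male and the highest knock-in male library in Meg3, so leaving them out also narrows the range of Meg3 in the fit. The shares of all genes given here are the background for the list counts below.

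**Figure D2:**
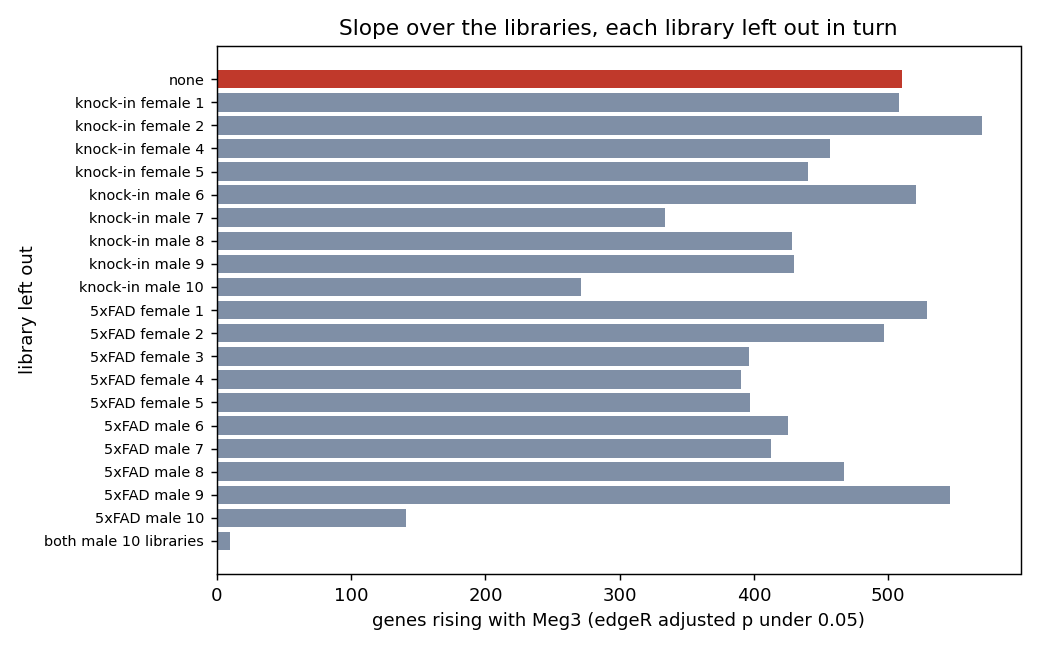
Number of genes rising with Meg3 in the slope fit (x axis) when the library named on the y axis is left out, with the full fit on top (red). The count is 510 with all libraries, 141 without 5xFAD male 10 and 10 without both libraries numbered 10.

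The nuclear and imprinted lncRNAs were mostly higher in the high libraries. Of 21 tested, 17 had a fold change above 0 (81%, against 48.1% of all genes), with a list median of 0.46. None passed in the class comparison, 9 had an unadjusted p under 0.05, and 8 rose with Meg3 in the slope fit (38.1%, against 2.8% of all genes). That count was 3 without 5xFAD male 10, 7 without knock-in male 10 and 2 without both. The list's median slope was 0.37 with all libraries and 0.33 without both.

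Miat was the member with the lowest p. Its CPM in high and low libraries was 812 and 615 against 442 and 426 in 5xFAD females, and 394 and 342 against 292 and 122 in 5xFAD males. It was 206 and 146 against 80.8 and 78.1 in knock-in females, and 799 and 360 against 253 and 216 in knock-in males. Both high libraries lay above both low ones in 4 of 4 groups, which 114 of all tested genes did (0.634%). The fold change of Miat was 0.99 ± 0.19 (log2, SE, n = 8 and 8; edgeR adjusted p = 0.116). Miat rose with Meg3 in the slope fit by 0.86 per log2 unit of Meg3 (edgeR adjusted p = 1.11e-05), and still without both libraries numbered 10 (edgeR adjusted p = 0.00919).

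Malat1 ran from 182 to 1085 CPM in the high libraries (median 778) and from 162 to 515 in the low ones (median 264). High and low did not overlap in 3 groups and overlapped in knock-in females, where the high libraries were at 299 and 182 CPM and the low ones at 228 and 162. The share of all genes without overlap in 3 groups was not counted. Its fold change was 1.10 ± 0.25 (log2, SE; edgeR adjusted p = 0.176). With the authors' own scaling factors as offsets, Malat1 was the 1 gene that passed. Neat1 had medians of 144 and 72.0 CPM in high and low libraries, with a fold change of 0.69 ± 0.15 (edgeR adjusted p = 0.139). Kcnq1ot1, the antisense transcript that silences an imprinted cluster on chromosome 7, had medians of 34.6 and 16.3 CPM and a fold change of 0.65 (edgeR adjusted p = 0.252). Kcnq1ot1 and Malat1 rose with Meg3 in the slope fit (edgeR adjusted p = 0.00285 and 0.00385), and neither passed without both libraries numbered 10 (0.35 and 0.353). Their slopes were 0.63 and 0.92 with all libraries and 0.67 and 0.99 without both. Neat1 did not pass in the slope fit (slope 0.44, edgeR adjusted p = 0.1003, and 0.74 and 0.452 without both). Whether reads of Kcnq1ot1 and its sense partner were told apart is not given in the sources used here.

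The neighbours of Meg3 on chromosome 12 share a locus with it and are not read as independent of it. Mirg, a host of microRNAs, had 4.42 to 18.1 CPM in high libraries and 2.97 to 15.5 in low ones, with high above low in 4 of 4 groups and a fold change of 0.65 (edgeR adjusted p = 0.310). Rian, a host of snoRNAs, had medians of 535 and 503 CPM and a fold change of 0.18. Rtl1, a retrotransposon-derived gene of the paternal allele, was at medians of 4.78 and 3.77 CPM, and Wdr25 at 7.50 and 8.01. Of 8 tested genes of the locus, 4 were above 0 and 4 below, with a median of -0.01 (0.04 with library size only and 0.10 with the authors' factors). In the slope fit 3 of the 8 rose with Meg3 (37.5%, against 2.8% of all genes), namely Mirg, Rian and Rtl1 (edgeR adjusted p = 0.000252, 0.0487 and 0.0497). That count was 1 without 5xFAD male 10, 2 without knock-in male 10 and 0 without both. The strand of the reads at Rtl1 is likewise not given in the sources used here.

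The snoRNA host genes gave a weaker picture. Of 12 tested, 9 were above 0 with a median of 0.20, and 2 rose with Meg3 in the slope fit (16.7%, against 2.8% of all genes). None of the 12 rose without 5xFAD male 10. The median slope was 0.09 with all libraries, 0.00 without 5xFAD male 10, and 0.13 without knock-in male 10 and without both. Snhg11, also a snoRNA host gene, was counted with the lncRNAs and not here. It rose with Meg3 without 5xFAD male 10 and without both libraries numbered 10 (edgeR adjusted p = 0.000963 and 0.00924). Snhg15 had medians of 2.32 and 1.33 CPM, with high above low in 4 of 4 groups and a fold change of 0.93 (edgeR adjusted p = 0.148). Snhg20, Snhg17 and Snhg12 had fold changes of 0.51, 0.39 and 0.26.

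Genes with detained introns and the splicing kinases were the list with the most calls in the slope fit. Of 35 tested, 34 had a fold change above 0 (97.1%), the median was 0.28, and 24 had an unadjusted p under 0.05. In the slope fit 17 rose with Meg3 (48.6%, against 2.8% of all genes), 5 without 5xFAD male 10, 16 without knock-in male 10 and 0 without both. The list's median slope was 0.25 with all libraries and 0.23 without both. DESeq2 called 6 of the 35 as higher in the class comparison (0.803% of all genes). In 6, both high libraries lay above both low ones in 4 of 4 groups (0.634% of all genes).

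Snrnp70 encodes the U1-70K protein of the U1 spliceosomal particle. Its CPM was 373 and 276 against 219 and 218 in 5xFAD females, and 225 and 184 against 164 and 109 in 5xFAD males. It was 158 and 128 against 91.1 and 72.3 in knock-in females, and 335 and 191 against 153 and 149 in knock-in males. High lay above low in 4 of 4 groups, and the fold changes within the groups, from 0.55 to 0.80, were closer to each other than those of Malat1 (0.30 to 1.69). The fold change over all groups was 0.68 ± 0.12 (log2, SE; edgeR adjusted p = 0.0817). Snrnp70 rose with Meg3 in the slope fit (edgeR adjusted p = 0.00107, and 0.141 without both libraries numbered 10). Its slope was 0.54 with all libraries and 0.69 without both.

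The RNA helicase gene Ddx17 had medians of 388 and 323 CPM in high and low libraries (fold change 0.30), and the splicing factor gene Srsf5 had 247 and 188 (0.41), both with high above low in 4 of 4 groups. Their edgeR adjusted p values were 0.136 and 0.154. In the slope fit Ddx17 did not pass (edgeR adjusted p = 0.0758). Srsf5 rose with Meg3 there (0.00369), but did not pass without both libraries numbered 10 (0.239).

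**Figure D3:**
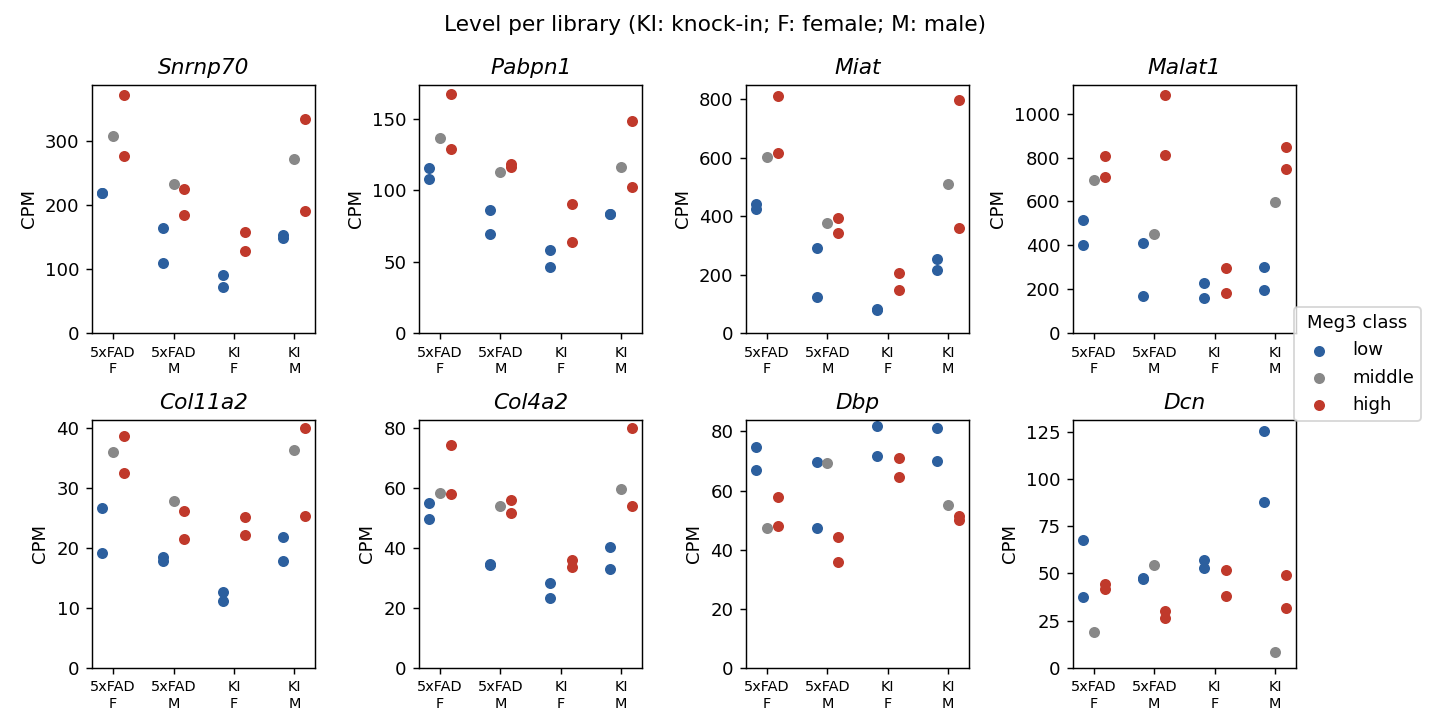
CPM with TMM factors (y axes, linear from 0) of 8 genes in each library, by group (x axes) and Meg3 class (colour). High points lie above low points in all 4 groups for Snrnp70, Pabpn1, Miat, Col11a2 and Col4a2, and below them in all 4 groups for Dbp.

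Other parts of the nuclear RNA machinery showed smaller differences. Of 23 nuclear speckle and paraspeckle protein genes, 17 were above 0 (73.9%), with a median of 0.14, and 3 rose with Meg3 in the slope fit (13%, against 2.8% of all genes). That count was 2 without either library numbered 10 and 0 without both. Pnn, which encodes the speckle protein pinin, had medians of 75.9 and 60.6 CPM and high above low in 4 of 4 groups (fold change 0.28, edgeR adjusted p = 0.158). Safb2, Srrm2 and Son had fold changes of 0.52, 0.40 and 0.26. Of 20 genes of polyadenylation, RNA export and decay, 13 were above 0 with a median of 0.06. In the slope fit 2 rose with Meg3 (10%, against 2.8% of all genes), 1 without 5xFAD male 10 and 0 without both libraries numbered 10. Pabpn1, the nuclear poly(A)-binding protein gene, ran from 63.7 to 168 CPM in high libraries (median 117) and from 46.4 to 116 in low ones (median 83.5). High lay above low in 4 of 4 groups for Pabpn1, with a fold change of 0.53 ± 0.10 (log2, SE; edgeR adjusted p = 0.0817). Smg1, the kinase gene of nonsense-mediated decay, had a fold change of 0.39, Zfc3h1 of nuclear RNA targeting 0.24, and the cleavage factor gene Cpsf2 -0.16.

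Of 30 chromatin regulators, 26 were above 0 with a median of 0.09 (0.26 in knock-in alone and -0.03 in 5xFAD alone), and 0 rose with Meg3 in the slope fit. The histone methyltransferase genes Kmt2d, Kmt2a, Kmt2b and Setd1a had fold changes of 0.45, 0.37, 0.27 and 0.21, with edgeR adjusted p values from 0.336 to 0.433. Within groups each was largest in knock-in males (1.17, 1.00, 0.53 and 0.61). In knock-in females they were at 0.15, 0.09, 0.15 and 0.02, and in the 5xFAD groups between 0.04 and 0.43. Of 25 genes with very long mRNAs for cytoskeletal, scaffold and channel proteins, 24 were above 0 (96%) with a median of 0.20, and 0 rose in the slope fit. The calcium channel genes Ryr3 and Ryr2 had fold changes of 0.61 and 0.36, the ribosome assembly gene Mdn1 0.53 and the ubiquitin ligase gene Herc1 0.28. These too were largest in knock-in males (1.36, 0.81, 1.25 and 0.71). In knock-in females they were at 0.19, 0.08, 0.32 and 0.20, and in the 5xFAD groups between 0.04 and 0.83. The neuronal genes with very long introns were not mostly above 0: 10 of 28 were (35.7%), with a median of -0.05 (0.00 with library size only and 0.03 with the authors' factors).

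Gene class and transcript length moved with the comparison. Protein-coding genes had a fold change above 0 in 43.5% of 15033 (median -0.02), and genes of other classes in 73.2% of 2537 (median 0.25). Genes annotated only as needing experimental evidence (TEC) were above 0 in 82.1% of 575, antisense genes in 73% of 596 and lincRNAs in 69.9% of 648. In the slope fit 7.06% of genes that do not encode proteins rose with Meg3, against 2.08% of protein-coding genes. Both shares are from the fit with all libraries. They were not counted without the male libraries on which the slope calls leaned, so whether this contrast holds without them was not tested. Among protein-coding genes the share above 0 was 35.4% in the bin of shortest transcripts (up to 2026 bases) and 58% in that of the longest (from 5363 bases), out of 5 bins of nearly equal size. It was 38.8% for genes with up to 3 exons and 58% for those with at least 17. It was 40.3% and 48.8% in the bins of lowest and highest GC content, and 40.3% and 44.9% in those of smallest and largest gene span. The part of transcript length in the list counts above was not tested.

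**Figure D4:**
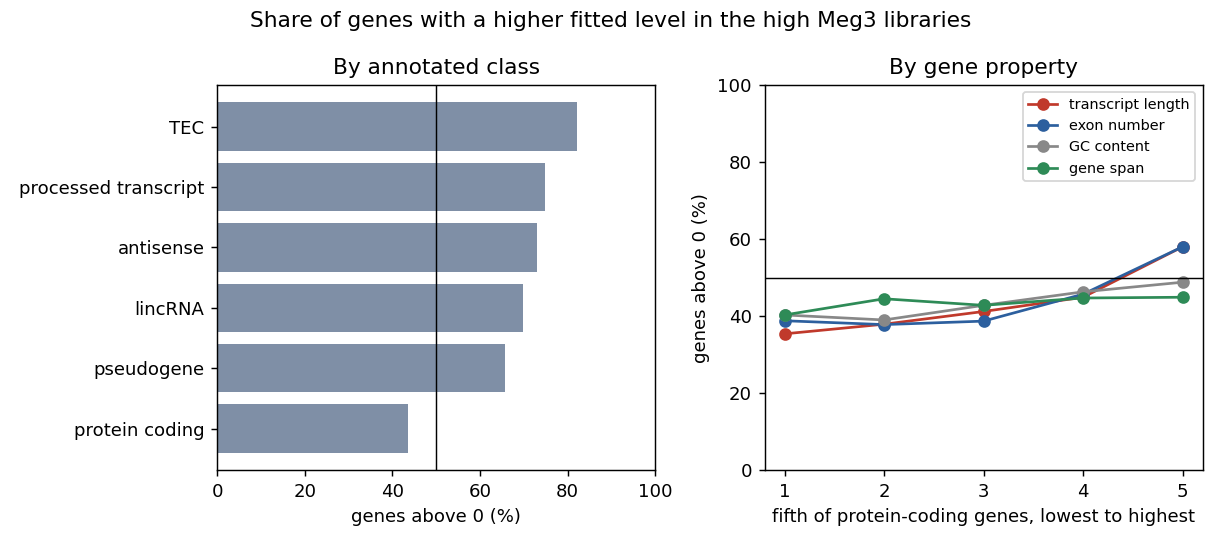
Share of genes with a fold change above 0 (percent) by annotated class (left, bars from 0) and by bin of protein-coding genes, 5 per property, for 4 gene properties (right). The share is 82.1% for TEC genes and 43.5% for protein-coding genes, and reaches 58% in the top bins of transcript length and exon number.

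By the rule for naming genes, the 5 genes with the lowest p in each direction are given as values, none of which passed. Higher in the high libraries were Col11a2, Fxyd3, Snrnp70, Col4a2 and Rgl2, with high above low in 4 of 4 groups in each and an edgeR adjusted p of 0.0817. Col11a2, a chain of a fibrillar collagen, ran from 21.4 to 40.0 CPM in high libraries (median 25.7) and from 11.1 to 26.6 in low ones (median 18.1), a fold change of 0.67 ± 0.11. Col4a2, a chain of basement membrane collagen, had medians of 55.1 and 34.5 CPM (fold change 0.56). Fxyd3, a regulator of the sodium pump, had 4.53 and 1.54 CPM (1.21), and Rgl2, an exchange factor for Ral, had 52.8 and 36.2 CPM (0.51). Col11a2 and Fxyd3 did not pass in the slope fit (edgeR adjusted p = 0.0616 and 0.113). Col4a2 and Rgl2 rose with Meg3 there (edgeR adjusted p = 0.00381 and 0.00272), but did not pass without both libraries numbered 10 (0.152 and 0.275). Col7a1, Col11a1 and Col20a1, with fold changes of 1.29, 0.98 and 0.90, were singled out after their values were seen. The collagen family, also picked after values were seen, had 32 of 42 genes above 0 with a median of 0.38. DESeq2 called 10 of them higher in the class comparison (0.803% of all genes). In the slope fit 6 rose with Meg3 (14.3%, against 2.8% of all genes), 5 without 5xFAD male 10, 3 without knock-in male 10 and 0 without both. The family's median slope was 0.32 with all libraries and 0.30 without both.

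Lower in the high libraries were Gh, Prl, Dbp, Vcam1 and Dcn. Gh and Prl encode growth hormone and prolactin, hormones of the anterior pituitary. Gh was at 0 counts in 4 of the 8 high libraries and at most 1.58 CPM in the others, and between 1.11 and 32.2 CPM in the low ones (edgeR adjusted p = 0.0817). A count of 0 allows up to 3 counts, which was 0.119 to 0.174 CPM over all libraries. High lay below low in 4 of 4 groups for Gh, which 23 of all genes did (0.128%). Prl ran from 0 to 1.09 CPM in high libraries and from 0.156 to 9.39 in low ones (edgeR adjusted p = 0.116). The middle 5xFAD female library had 7.50 CPM of Gh and 12.7 of Prl, and the middle libraries of both male groups had 0 of each. Dbp, a clock-controlled transcription factor gene, had medians of 50.8 and 70.9 CPM with high below low in 4 of 4 groups (fold change -0.44 ± 0.09, edgeR adjusted p = 0.116). The dissection of the tissue and the hour of collection were not tested for a part in these values. Vcam1, an adhesion molecule gene, and Dcn, a proteoglycan gene of fibroblasts, had fold changes of -0.35 and -0.69, with high below low in 3 groups. The share of all genes that lay so in 3 groups was not counted. In the slope fit none of the 5 passed (edgeR adjusted p = 0.151 for Gh, 0.0756 for Prl, 0.638 for Dbp, 0.382 for Vcam1 and 0.695 for Dcn).

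Markers of tissue at the border of the hippocampus leaned one way within each list without passing, and the direction varied between groups or fits. All 14 choroid plexus markers were lower in the high libraries, with a median of -0.68 and none at an unadjusted p under 0.05. The median ran from -1.02 to -0.14 on leaving out single libraries, and the median slope on Meg3 was -0.46, but 0.36 without 5xFAD male 10. Their summed share was 0.0256 to 0.661% of counts in high libraries and 0.0235 to 1.54% in low ones (exact within-group permutation test, two-sided, p = 0.329, n = 8 and 8). Aqp1, Folr1, Kl and Enpp2 had fold changes of -1.41, -1.02, -0.74 and -0.63. The groups went opposite ways: all 4 genes were below 0 in both 5xFAD groups and in knock-in females (-0.97, -0.81, -0.88 and -0.87), and above 0 in knock-in males (1.41, 1.04, 1.28 and 1.30). Of 14 ependymal and cilia genes 13 were above 0, with a median of 0.36 that ran from 0.11 to 0.59 on leaving out single libraries and was -0.33 with the highest and lowest library of each group alone. Cfap44, Spef2, Dnah12 and Ccdc153, genes of motile cilia, had fold changes of 0.80, 0.43, 0.84 and 0.80, and all 4 were below 0 in 5xFAD females (-0.37, -0.29, -1.01 and -0.46). Of 14 fibroblast and meningeal genes 11 were below 0, with a median of -0.51. Within that list Fmod, a small proteoglycan gene, was at -1.10, and the collagen genes Col5a1 and Col6a1 were at 0.65 and 0.46. The part of these tissues in the other results was not tested.

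Proteasome and chaperone genes lay slightly below 0 in the high libraries. Of 28 proteasome genes, 27 were below 0 with a median of -0.10. Psmd2, Psmc4, Psma1 and Psma4 had fold changes of -0.16, -0.19, -0.21 and -0.17, with edgeR adjusted p values from 0.372 to 0.461. Of 14 heat shock chaperone genes, 13 were below 0 with a median of -0.13. Hspa5, the chaperone of the endoplasmic reticulum, was at -0.23, Hspb1 at -0.38, Hsp90ab1 at -0.15 and Bag3 at -0.25. Of 13 mitochondrially encoded genes 12 were below 0 (median -0.15, but -0.42 in females alone and 0.12 in males alone). Their share of counts was 7.07 ± 1.79% in high and 7.58 ± 1.15% in low libraries (SD, exact within-group permutation test, two-sided, p = 0.546, n = 8 and 8). Both low libraries had a higher share than both high ones in 3 groups, knock-in males among them. The reverse held in 5xFAD males, where the high 5xFAD male 6 library was at 10.7%. Ribosomal protein genes were below 0 in 53 of 78 with a median of -0.06, which was 0.20 in females alone and -0.27 in males alone, and ran from -0.10 to 0.00 on leaving out single libraries. Nuclear respiratory chain genes were below 0 in 43 of 66 (median -0.05, but 0.20 in females alone, -0.30 in males alone and 0.00 with library size only). The difference between the sexes in these list medians was not tested. The share of noncoding RNA without Meg3 was 2.41 ± 0.32% and 2.26 ± 0.22% (exact permutation p = 0.303, n = 8 and 8). Over the 7 library measures tested this way, the smallest adjusted p was 0.575, where the design allows a raw p of 0.00154.

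**Figure D5:**
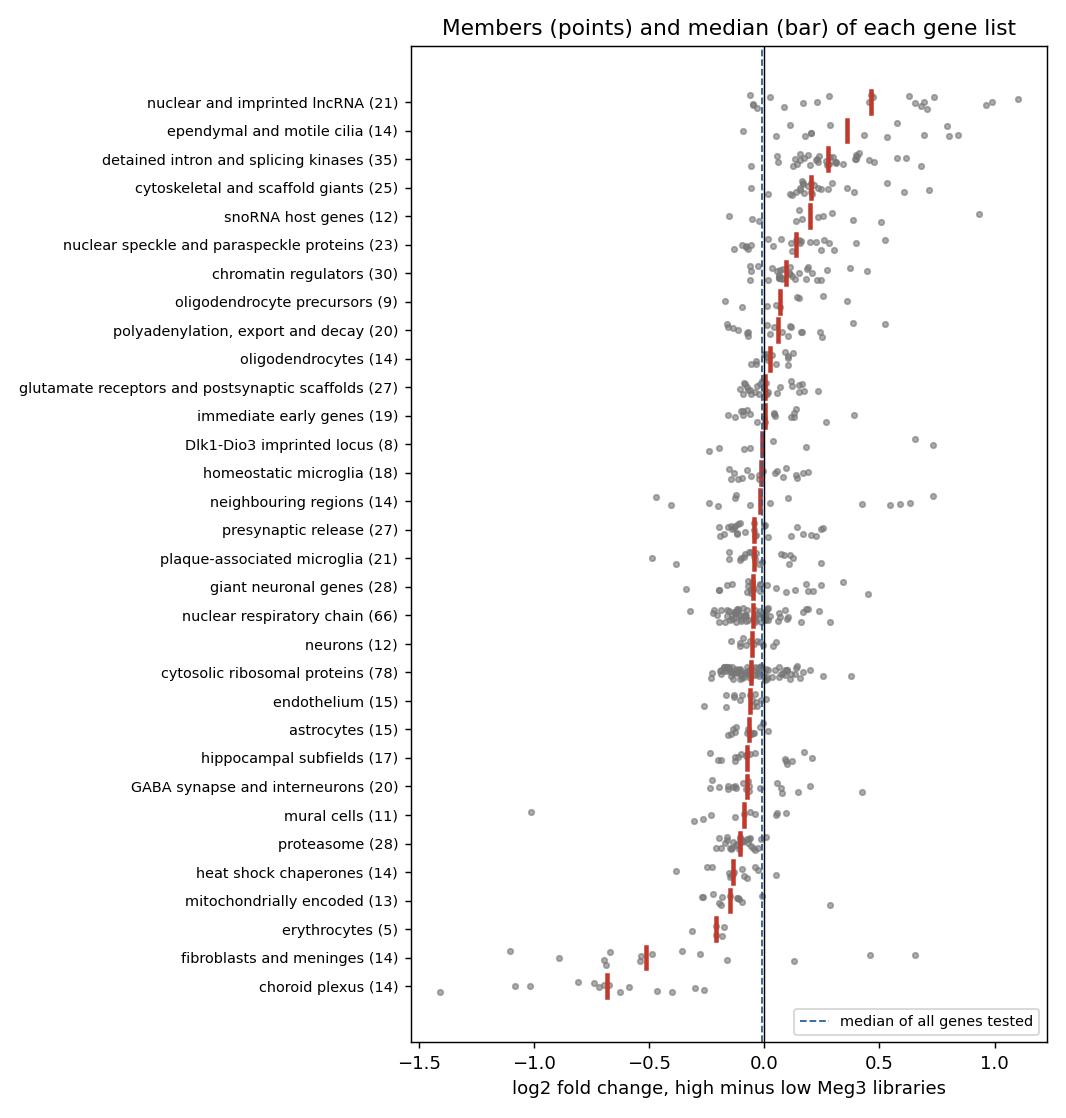
Log2 fold change of high against low libraries (x axis) for the members of each list (points, spread vertically for visibility) with the list's median (red bar) and the number tested in parentheses. The lncRNA median is 0.46 and that of genes with detained introns 0.28, while choroid plexus is at -0.68 and most cell type lists lie near the median of all genes.

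Most cell type lists of the hippocampus had medians close to 0. Of 12 neuronal markers 10 were below 0 (median -0.05, and 0.06 in females alone), of 15 astrocyte markers 14 (median -0.07) and of 15 endothelial markers 14 (median -0.06). Homeostatic microglial markers were below 0 in 10 of 18 and plaque-associated ones in 15 of 21 (medians -0.01 and -0.04, and 0.03 and 0.00 with library size only). Of these 5 lists none had more than 1 member at an unadjusted p under 0.05. Oligodendrocyte precursor markers were above 0 in 7 of 9 (median 0.07), with 2 higher and 1 lower at an unadjusted p under 0.05. Oligodendrocyte markers were above 0 in 10 of 14 (median 0.03) and mural cell markers in 3 of 11 (median -0.09, lowest -1.01). Genes that the study's genotypes bear on did not pass either. Clu, the clusterin gene, had medians of 901 and 1086 CPM in high and low libraries (fold change -0.22 ± 0.09, edgeR adjusted p = 0.429). Ide, Cd68, Olfml3, Gusb and Gfap had fold changes of -0.19, -0.15, -0.11, -0.04 and -0.02. The direction of Gfap and Gusb changed with the scaling (0.03 and 0.01 with library size only).

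The 10 genes whose levels followed Meg3 most closely over the 19 libraries were picked by Pearson's r of log2 CPM after removing group means, so the values are a description with no test. The points share libraries, depth and group centring. Akap8, a nuclear anchoring protein gene, had r = 0.96 (Spearman's rho 0.95). Leng8 and Spaca6 followed at 0.95, Odf2 and Ssh3 at 0.95, Firre, Helq and Snhg11 at 0.94, and Zfp512b and Pnisr at 0.93. After removing group means, the libraries farthest from the median Meg3 level were 5xFAD male 10 and knock-in male 7. Without them, and with knock-in male 10 kept, r ran from 0.85 for Pnisr to 0.93 for Akap8. Firre and Snhg11, whose promoters are printed above, had medians of 76.2 and 1454 CPM in high libraries and 45.3 and 831 in low ones. Both high libraries lay above both low ones in 4 groups for Firre (0.634% of all genes) and in 3 for Snhg11 (share of all genes not counted). Pnisr, a speckle-associated protein gene, had medians of 220 and 128 CPM, and Leng8, a gene of nuclear mRNA retention, had 258 and 130.

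The difference between high and low libraries was compared between the sexes and between the genotypes in a fit with a mean for each of the 8 combinations of group and class. It differed between females and males in 4 of 17971 genes (0.0223%). Kcnf1, a potassium channel subunit gene, was higher in high libraries of females (0.90 in 5xFAD and 0.53 in knock-in, log2) and lower in those of males (-0.89 and -0.35), a difference of 1.33 ± 0.17 (SE; edgeR adjusted p = 0.0287). Tmsb10, an actin-binding thymosin gene, differed by 1.31, Mgst3, a glutathione transferase gene, by 0.92, and Podxl2, a sialomucin gene, by 0.79 (edgeR adjusted p = 0.0426 each). Each of these was above 0 in both female groups and below 0 in both male groups. Ifi203, an interferon-inducible gene, had the opposite pattern and did not pass (-1.74, edgeR adjusted p = 0.0738). The calls were not stable: 9 of the 16 libraries, left out one at a time, left 0 genes. Between the genotypes 0 of 17971 genes differed with edgeR (0%), and 4 genes with DESeq2. At an unadjusted p under 0.05 there were 789 of the 17971, a smaller share than the 0.05 that chance alone gives. The 5 with the lowest p were Pam16, Scrt1, Idi1, Pskh1 and Plcd4, with knock-in minus 5xFAD differences of -1.12, 0.69, -0.50, 0.74 and -0.52 (edgeR adjusted p = 0.910).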

How the data were processed

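Bulk RNA-seq of mouse hippocampus was measured in 19 libraries. Per the labels' protocols, column-purified, DNase-treated total RNA with integrity numbers from 7 upward was sequenced as paired 150 bp reads on NovaSeq and HiSeq instruments, and which library ran on which is not given in the sources used here. The tools Salmon, FastQC, Seurat and DESeq2 and the build mm39 are named, without versions or roles, per the submitters' processing notes. The authors deposited estimated counts per gene as whole numbers, used for every test, and a normalized signal, in which the authors' scaling varies by gene as well as by library, used only as an alternative scaling. A table of variance-stabilized values was not used.

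Of 20655 gene IDs, 20023 (96.9%) had a symbol and class in GENCODE M21 (GRCm38), so only chromosomes are given for genes and promoters come from RefSeq tables of that build. The test was that of edgeR 4.0.16 (R 4.3.3) on the counts (TMM scaling, filterByExpr with a minimum of 10 counts, robust quasi-likelihood F-test) with the 4 groups as a block. Adjusted p values are Benjamini-Hochberg values with a threshold of 0.05. DESeq2 1.42.0 and limma 3.58.1 (voom) were alternatives. Shares of counts were compared by an exact two-sided permutation of the classes within groups (1296 arrangements). The scripts were tested on simulated data. Chi-square per gene was at least 8.95 in the 36 within-group pairs of libraries, where counting noise gives 1, so no pair was merged. Each library is 1 animal. Total counts of 17.28 to 25.2 M (mega) limit the precision for genes of few CPM.

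The libraries were split by their own Meg3 level, so the comparison relates RNAs of the same libraries to each other and is no treatment. The classes, gene lists and tests were chosen with earlier results of these data known. Genes named are the 5 with the lowest p per direction averaging 1 log2 CPM or more, up to 4 lowest-p members of each list described, 5 per interaction, the 10 most like Meg3, and Ide, Gusb, Olfml3, Cd68, Gfap and Clu. A further gene that this rule gives is not reported here. Which lists were described with members was decided after values were seen.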

Additional observations from a re-analysis of the deposited data

Results flagged for a closer look

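Among 34 sets of 8 high or 8 low libraries checked for a library far from the others, 3 sets held such a library. Chance gives about 1 in 20 where all 8 values come from the same normal distribution. The sets here pool the 4 groups, so a difference between groups can also set a library apart. The choroid plexus share of the low knock-in female 4 library was 1.54% of counts, 0.908 above the next low library. The high knock-in female 5 library had 25.2 M counts (M stands for mega), 5.04 M more than the next high library. Dbp in the low 5xFAD male 10 library was at 5.56 log2 CPM, 0.50 below the next low library.

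In 4 genes the difference between high and low libraries itself differed between females and males, by 1.33 for Kcnf1, 1.31 for Tmsb10, 0.92 for Mgst3 and 0.79 for Podxl2 on the log2 scale (edgeR interaction test, adjusted p under the threshold of 0.05).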

How the results depend on the processing

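The count of 0 genes in the class comparison became 161 with DESeq2 (153 higher, 8 lower), 512 in the slope fit (510 and 2), 1 with the authors' factors (Malat1, higher), and 0 to 7 on leaving out single libraries. Without 5xFAD female 4 the 7 were Pabpn1, Col11a1, Col4a2, Rgl2, Fxyd3, Snrnp70 and 1 unnamed gene. Without knock-in male 9 Col11a2, Snrnp70 and Zgpat passed, without knock-in male 7 Gh and Prl, and without 5xFAD female 1 Gm13304. It was 2 without the 5xFAD females (Col11a1 and Gm13304; 1 higher, 1 lower), 1 without the knock-in males (Gh, lower), 2 in females alone (Gh and Prl, both lower), 2 in males alone (Col11a1 and Gm13304; 1 and 1) and 2 in knock-in alone (Gm13304 and Gm28048, both lower). DESeq2 and the slope fit shared 108 genes, 67.1% of the first and 21.1% of the second. Ranking by TMM-scaled Meg3 moved 0 libraries between classes.

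The slope fit, whose alternatives were chosen after seeing the data, gave 156 to 574 genes on leaving out single libraries, 10 without both libraries numbered 10 and 884 with DESeq2. The interaction with sex gave 0 to 24 genes on leaving out single libraries and 284 with DESeq2, and that with genotype 0 to 2 and 4 (Gm45837, Iars, Zfp968 and Gm20390). The cause of these changes was not tested.

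Replicate numbers did not pair the animals: over 9 same-numbered pairs the correlation of deviations ran from -0.367 to 0.242, and 4 of 18 libraries were closest to their own number. With the replicate block 3 genes passed in the class comparison (1 higher, 2 lower: Gh, Gm13304 and Gm45140), and 154 in the slope fit (152 and 2).

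Among the library measures, 2 passed on leaving out 1 library: genes with a count ranged from 59.7 to 157 more in high libraries (exact permutation p = 0.0401 without 5xFAD female 1), and the mitochondrial share from -1.03 to -0.27 points (p = 0.0417 without 5xFAD male 6). The ribosomal protein share ranged from -0.0649 to 0.0325 points and total counts from -0.995 to 0.147 M on leaving out single libraries. With the highest and lowest library of each group they were 0.00143 points and 0.874 M. The values with 1 library left out are differences of the means of all high and all low libraries, so they also hold differences between the groups.

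Of 152 genes the naming rule gives over all lists, 43 changed sign in 83 of 5470 fits, none past the threshold. Of the genes in the text, the sign changed with library size only for Gusb (0.0056) and Gfap (0.0281). It changed with the authors' factors for Gusb (0.0236), Wdr25 (0.19) and Setd1a (-0.0159). With the highest and lowest libraries it changed for Spef2 (-0.14), Dnah12 (-0.30) and Ccdc153 (-0.35). In females alone it changed for Wdr25 (0.004), Son (-0.0253), Zfc3h1 (-0.035), Spef2 (-0.19) and Dnah12 (-0.19), and in males alone for Cd68 (0.0203), Gfap (0.0059) and Enpp2 (0.10). In knock-in alone it changed for Aqp1 (0.16), Folr1 (0.075), Kl (0.20) and Enpp2 (0.22), and with the slope and replicate block for Fmod (0.10). Gfap was at 0.0024 without the 5xFAD males and 0.0097 without the knock-in females, and ranged from -0.0839 to 0.0544 on leaving out single libraries.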
